A study of Mus musculus with 2 samples.

Results

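The genes described here are 4 chemokine ligands that attract monocytes, Ccl2, Ccl7, Ccl8 and Ccl12, and their receptor Ccr2. They were chosen by symbol, and all 5 were found among the 24984 genes measured. Single cell RNA-seq was performed on mononuclear cells of hind limb muscle from mdx mice, which lack dystrophin and model Duchenne muscular dystrophy, to learn how loss of the transcription factor Yin Yang 1 (Yy1) in muscle stem cells (MuSCs) alters the other cells of the muscle. There were 2 libraries and 1 per group. The control (Ctrl) library came from Pax7CreERT2/R26YFP; Yy1+/+; mdx mice and the double knockout (dKO) library from Pax7CreERT2/R26YFP; Yy1f/f; mdx mice, and the mdx parent strain was C57BL/10 ScSn. Tamoxifen was injected at 1.5 months of age in both groups, muscles were harvested 1 month later, and cells of 3 mice were pooled for each library, so the spread between mice was not measured and no test between the groups is possible. The Cre recombinase is driven by Pax7, which marks MuSCs, so the deletion is aimed at these cells and their progeny, and any other cell type carries intact Yy1 by design.

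Ccl2, Ccl7, Ccl8 and Ccl12 encode small secreted proteins of the CC chemokine family, also called monocyte chemoattractant proteins. Ccr2 is a G protein-coupled receptor on classical monocytes, some dendritic cells and some T cells, and cells that carry it leave the bone marrow and enter inflamed tissue toward its ligands. In injured and dystrophic muscle this route brings in blood monocytes, which become macrophages beside the fibro-adipogenic progenitors (FAPs), the mesenchymal cells that make the matrix.

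The 4 ligand genes lie together on the plus strand of mouse chromosome 11 (GENCODE M21, GRCm38), and each has 3 exons. Ccl2 spans chr11:82035571-82037453 and lies within an intron of Gm17268, a gene on the minus strand that is not among the genes counted. Ccl7 spans chr11:82045712-82047525, Ccl12 chr11:82101845-82103400 and Ccl8 chr11:82115185-82116799. The 81.2 kb from Ccl2 to Ccl8 hold 1 further gene of the family, Ccl11, between Ccl7 and Ccl12. Ccr2 lies apart at chr9:124101950-124113557 on the plus strand and spans 11.6 kb, and its longest transcript has 2 exons. The ligands are related in sequence, yet no run of 31 bases is shared between the transcripts of any pair of members.

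RefSeq promoter entries (GRCm38.p6) matched 3 of the 5 members, Ccl8, Ccl12 and Ccr2. The 250 bases before the start of Ccl8 and of Ccl12 are shown because these neighbouring genes had the largest ratios between the libraries in macrophages, described below. They are at chr11:82114935-82115184 and chr11:82101595-82101844, on the plus strand and written 5′ to 3′, with capitals marking the letters TATAAA of a TATA box.
Ccl8: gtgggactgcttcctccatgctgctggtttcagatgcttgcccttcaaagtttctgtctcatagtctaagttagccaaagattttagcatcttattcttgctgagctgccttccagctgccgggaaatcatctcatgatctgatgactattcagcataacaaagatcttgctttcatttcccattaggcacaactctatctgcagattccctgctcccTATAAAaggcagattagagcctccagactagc
Ccl12: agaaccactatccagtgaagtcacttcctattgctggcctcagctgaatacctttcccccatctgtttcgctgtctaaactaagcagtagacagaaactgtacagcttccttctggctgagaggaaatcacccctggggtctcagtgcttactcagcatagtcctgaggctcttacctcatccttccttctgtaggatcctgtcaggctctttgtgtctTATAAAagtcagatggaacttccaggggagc
The TATAAA match ended 27 bases before the start of Ccl8 and 26 bases before that of Ccl12, and 12.4% of the 32851 promoter windows of this length held those letters on either strand. Searched on both strands, the core letters of a YY1 site (CCATNTT, in 12.4% of windows) and of an AP-1 site (TGANTCA, in 6.75%) were in neither window, nor were the NF-kB consensus (3.90%) and that of the interferon-stimulated response element (0.177%). None of the 5 motifs was in the Ccr2 window. That window (chr9:124101933-124102182) precedes the RefSeq start and lies mostly within the GENCODE span of Ccr2 given above. These matches describe letters only.

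After filtering, 4010 cells of the Ctrl library and 3079 of the dKO library were kept, with medians of 7807 and 7852 unique molecular identifiers (UMIs, counted RNA molecules) per cell. Among the kept cells, 6 barcodes occurred in both libraries. Cells were clustered with 31 CC chemokine and receptor genes left out, while CXC chemokines such as Cxcl5 were kept. The clusters were named from marker genes, which gave 11 classes with at least 30 cells in each library. Monocyte/macrophage-like (MO/MP-like) cells numbered 1422 in Ctrl and 1123 in dKO, 35.5% and 36.5% of cells, and FAP-like cells 1120 and 1174, 27.9% and 38.1%. MuSC-like cells were few, 120 and 30. Yy1 was at 163 CPM (counts per 1000000 UMIs) in the Ctrl MuSC-like cells (402 UMIs) and 3.91 CPM in those of dKO (3 UMIs), as the labels state. Levels below are CPM of the UMIs summed over a class and library, and comparisons are between libraries within 1 gene. Intervals are 95% exact intervals and cover counting error only.

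The main source differed between the ligands, and Ccl8 and Ccl12 shared theirs with the receptor. Ccl2 and Ccl7 were highest in FAP-like cells of both libraries, Ccl8 and Ccl12 in MO/MP-like cells, and Ccr2 in dendritic cell-like cells of Ctrl and T cell-like cells of dKO, although MO/MP-like cells held most of its UMIs. The FAP-like cells held 80.0% of all Ccl2 UMIs in Ctrl and 87.0% in dKO, and 81.3% and 83.2% of those of Ccl7. MO/MP-like cells held 83.0% and 86.0% of the Ccl8 UMIs, 92.1% and 96.4% of those of Ccl12, and 77.7% and 75.4% of those of Ccr2.

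**Figure D1:**
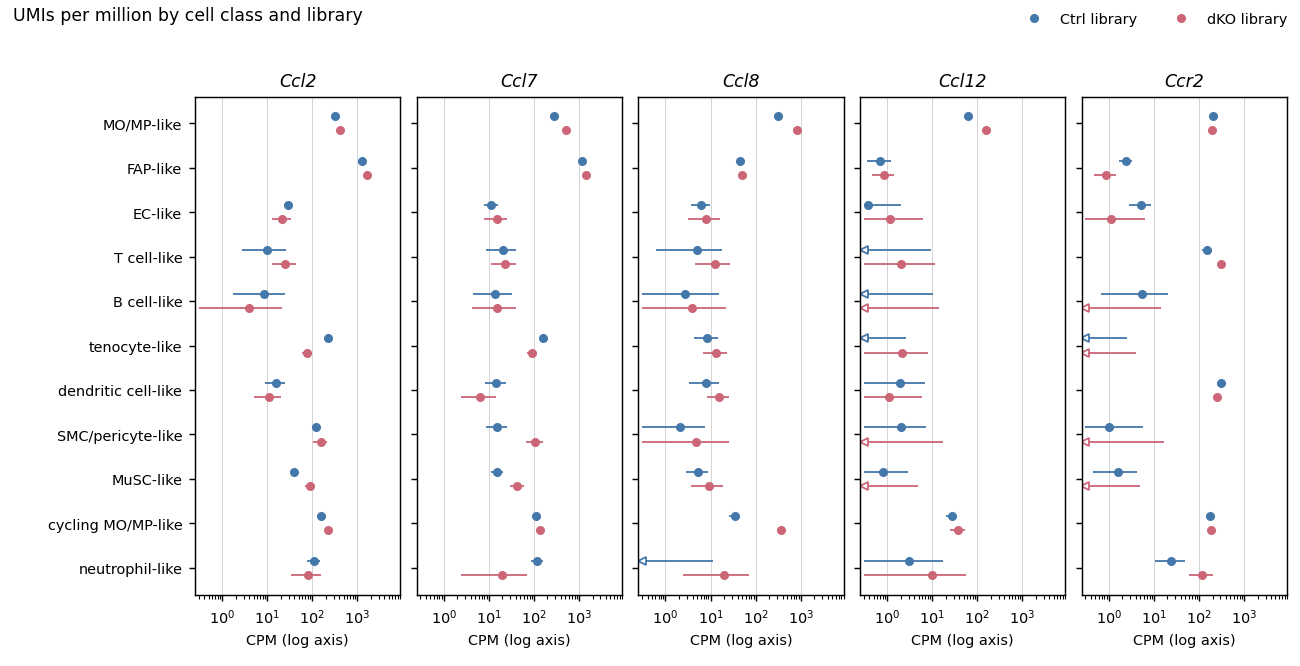
Levels of the 5 genes in each of the 11 cell classes, in CPM on a log axis, with 1 panel per gene and 1 point per library (Ctrl and dKO). Bars are 95% exact Poisson intervals and open triangles at the left edge mark classes with 0 UMIs. Ccl2 and Ccl7 lie furthest right in FAP-like cells, at 1169 CPM or more in both libraries, whereas Ccl8 and Ccl12 lie furthest right in MO/MP-like cells.

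Ccl2 was at 1302 CPM in the FAP-like cells of Ctrl and 1618 CPM in those of dKO. It was lower in MO/MP-like cells, at 319 and 408 CPM, and in tenocyte-like (tendon fibroblast) cells, at 228 and 77.5 CPM. Cycling MO/MP-like cells, smooth muscle cell/pericyte-like (SMC/pericyte-like) cells and neutrophil-like cells came next in Ctrl, at 159, 119 and 110 CPM. The intervals of SMC/pericyte-like (97.9 to 142 CPM) and neutrophil-like cells (77.0 to 152 CPM) overlapped, so the order of these neighbours was not resolved. The lowest Ctrl level among the 11 classes was in B cell-like cells, at 8.32 CPM from 3 UMIs. Ccl7 had the same 3 classes at the top in Ctrl. It was at 1169 CPM in FAP-like cells of Ctrl and 1457 CPM in those of dKO, at 277 and 523 CPM among MO/MP-like cells, and at 160 and 89.5 CPM in tenocyte-like cells.

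Ccl8 had 307 CPM in MO/MP-like cells of Ctrl and 818 CPM in those of dKO. FAP-like cells had 44.1 and 49.6 CPM, and cycling MO/MP-like cells 34.1 and 370 CPM. In MO/MP-like cells Ccl12 reached 62.9 and 153 CPM, and only 11 and 14 UMIs were found in FAP-like cells, under 1 CPM in each library. Of the 4 ligands Ccl12 had the largest share of its UMIs in MO/MP-like cells in both libraries.

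Ccr2 was at 314 CPM in dendritic cell-like cells of Ctrl, 208 CPM in MO/MP-like, 180 CPM in cycling MO/MP-like and 151 CPM in T cell-like cells. In dKO the T cell-like cells had 302 CPM and the dendritic cell-like cells 255 CPM, and their intervals (255 to 355 and 224 to 290 CPM) overlapped. FAP-like cells, the main source of Ccl2 and Ccl7 RNA, had 38 and 14 UMIs of Ccr2, or 2.41 and 0.855 CPM. No Ccr2 UMI was found in tenocyte-like cells of either library, where the upper bounds were 2.59 and 4.03 CPM. After each cell had been thinned to 2000 UMIs, this was 0 of 130 and 0 of 80 cells. These counts allow up to 2.80% and 4.51% of such cells to hold a Ccr2 UMI at this depth. They set no limit on the share that express it.

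Across the 22 profiles of 11 classes in 2 libraries, which share their library preparation and differ in depth, the levels on a log2(CPM + 1) scale of Ccl2 and Ccl7 had a Pearson correlation of 0.906 and those of Ccl8 and Ccl12 one of 0.788. Ccr2 correlated with Ccl12 at 0.626 and with Ccl2 at -0.10. Of 12571 genes compared, and with the 5 members left out of the ranking, those with profiles most like Ccl12 were C1qa (0.957), a complement component of macrophages, Siglec1 (0.949), a macrophage lectin, and Retnla (0.918). Those most like Ccr2 were Cd200r1 (0.947), an inhibitory receptor of myeloid cells, Pycard (0.936), the inflammasome adaptor, and Fyb (0.933). Ugp2 (0.850), Gm1673 (0.842) and Itgb5 (0.832) were most like Ccl2, Rnase4 (0.849), Reps2 (0.818) and Dnmt3l (0.794) most like Ccl7, and Tlr5 (0.898), Cacna1f (0.841) and C6 (0.836) most like Ccl8.

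Levels were then compared between the libraries class by class. A gene was called higher or lower where the dKO level was at least 1.5-fold above or below that of Ctrl with at least 100 UMIs over both libraries. Of the 55 pairs of a member and a class, 18 had enough UMIs, and of these 6 were called higher, 2 lower and 10 neither. Over all genes, 5.0% of such pairs with enough UMIs were called higher and 5.26% lower.

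In MO/MP-like cells 3 of the 4 ligands were higher in the dKO library and the receptor was not called. Ccl7, at 277 CPM in Ctrl and 523 CPM in dKO, was 1.89-fold higher (1.80 to 1.97). Ccl8 was 2.66-fold higher (2.56 to 2.77) and Ccl12 2.43-fold higher (2.22 to 2.65). For these 3 genes 98.4%, 99.6% and 99.4% of the 8693 genes with enough UMIs in the class had a ratio at or below theirs, and 4.47% of those genes were called higher and 2.65% lower. Ccl2 had a ratio of 1.28 (1.22 to 1.34) and Ccr2 one of 0.942 (0.886 to 1.00), both short of the call. The median log2 ratio over all genes of the class was 0.00.

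**Figure D2:**
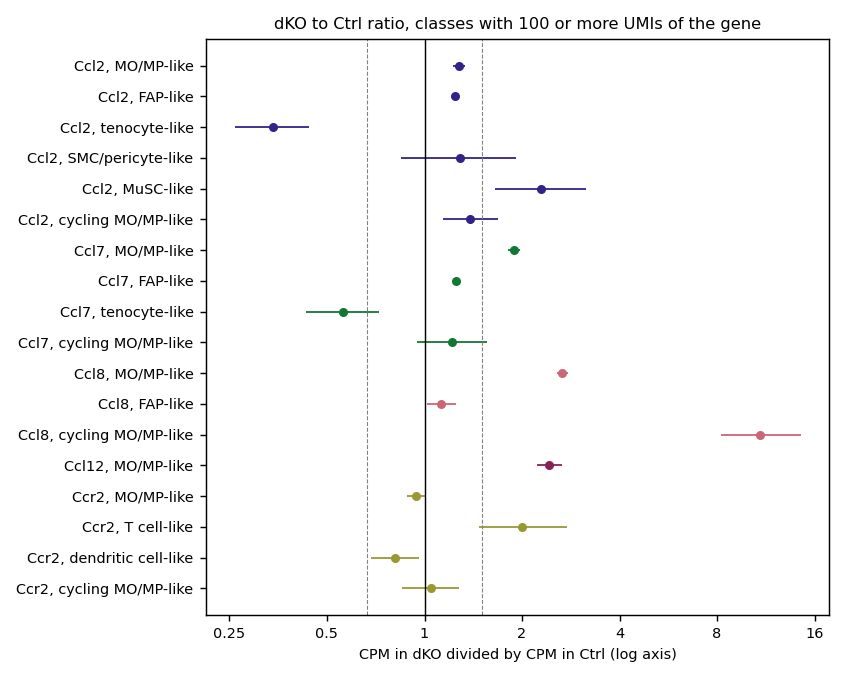
Ratio of the dKO to the Ctrl level of each gene in the classes where it had enough UMIs, on a log axis, with 95% exact intervals. Dashed lines mark 1.5-fold higher and 1.5-fold lower. Ccl7, Ccl8 and Ccl12 in MO/MP-like cells lie right of the upper line, at 1.89, 2.66 and 2.43, and both FAP-like values of Ccl2 and Ccl7 lie short of it.

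In FAP-like cells no member was called in either direction, where 2.70% of the 10418 genes with enough UMIs were called higher and 3.16% lower. The ratio was 1.24 (1.22 to 1.27) for Ccl2, from 20570 UMIs in Ctrl and 26493 in dKO. Ccl7 had a ratio of 1.25 (1.22 to 1.27) and Ccl8 one of 1.13 (1.02 to 1.25). The 3 ligands were thus slightly above Ctrl, while the median log2 ratio over all genes of the class was -0.06.

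Markers of other cells were measured beside these ratios. The summed level of the 17 MO/MP markers was 31196 CPM in MO/MP-like cells of Ctrl and 32047 CPM in those of dKO, and the summed level of the 14 FAP markers in the same cells was 510 and 388 CPM. In FAP-like cells the FAP markers summed to 43945 and 40263 CPM, and the MO/MP markers to 501 and 872 CPM, with 1 of the 17 at 0 in dKO. Markers of neutrophils (9 genes) summed to 203 and 107 CPM and those of endothelial cells (EC, 13 genes) to 40.1 and 28.6 CPM in MO/MP-like cells. In FAP-like cells the same lists summed to 84.8 and 60.6 CPM and to 41.0 and 18.6 CPM. The part of such RNA in the members' ratios was not tested.

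Smaller classes differed among themselves. In tenocyte-like cells Ccl2 had 325 UMIs in Ctrl and 71 in dKO and was lower in dKO, with a ratio of 0.340 (0.259 to 0.441). Ccl7 was also called lower there, with a ratio of 0.560 (0.429 to 0.723). In the class 3.32% of genes were called lower and 2.86% higher. Both values rested on few cells, since 3 cells in each library held 50% of the Ccl2 UMIs and 2 cells 50% of those of Ccl7. The thinned share of cells with Ccl2 was 8.46% in Ctrl and 7.5% in dKO. With each cell thinned to 2000 UMIs the Ccl7 value was a log2 ratio of -0.07 and the call was lost. In MuSC-like cells, the cells that lack Yy1 in dKO, Ccl2 was at 38.8 CPM in Ctrl (96 UMIs) and 88.6 CPM in dKO (68 UMIs), a ratio of 2.28 (1.65 to 3.15) where 8.09% of genes were called higher and 13.0% lower. A single cell held 37.5% of these UMIs in Ctrl and 51.5% in dKO, and the mean of each cell's own CPM was lower in dKO, with a log2 ratio of -0.43. No direction is therefore drawn for Ccl2 in MuSC-like cells. Ccl7 had 38 and 33 UMIs in the same cells and was under the minimum. In SMC/pericyte-like cells Ccl2 had a ratio of 1.29 (0.849 to 1.92) and was not called, as against 9.93% of genes called higher and 13.9% lower.

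The receptor was called in 1 class. In T cell-like cells Ccr2 was at 151 CPM in Ctrl (60 UMIs) and 302 CPM in dKO (146 UMIs), 2.0-fold higher (1.47 to 2.75), where 4.92% of genes were called higher and 2.09% lower. In dendritic cell-like cells its ratio was 0.813 (0.684 to 0.965) and in cycling MO/MP-like cells 1.04, neither of which passed the call. Of the genes in dendritic cell-like cells 5.72% were called higher and 2.74% lower. Ccl8 was 10.9-fold higher (8.21 to 14.5) in cycling MO/MP-like cells, where 6.82% of genes were called higher and 5.62% lower. Only 62 and 279 Ccl8 UMIs lay behind this value, and a single cell gave 62.9% of the Ctrl and 62.0% of the dKO UMIs. Without that cell in each library the log2 ratio was 3.49. The thinned share of cells with Ccl8 was 1.94% in Ctrl (2 of 103) and 11.4% in dKO (5 of 44). The Ctrl share was near that of B cell-like cells (1.03%, 0.026% to 5.61%), which show the level of stray RNA. No size is therefore drawn for this ratio.

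The amount of each RNA in a whole library also depends on how many cells of its source were sampled. Over all kept cells Ccl2 was 1.58-fold higher in dKO (1.55 to 1.61), Ccl7 1.68-fold (1.66 to 1.71), Ccl8 2.27-fold (2.19 to 2.35) and Ccl12 2.05-fold (1.88 to 2.23). All 4 ligands were called higher, as were 3.33% of all genes with enough UMIs, and 6.97% were called lower. Ccr2 had a ratio of 0.858 (0.813 to 0.905). Of the whole-library level of Ccl2, FAP-like cells gave 506 CPM in Ctrl and 869 CPM in dKO, a difference of 363 CPM, while MO/MP-like cells gave 102 and 116 CPM. Ccl7 had the same main source, with 454 and 782 CPM from FAP-like cells and 89.0 and 148 CPM from MO/MP-like cells. For Ccl8 and Ccl12 the difference lay with MO/MP-like cells, from 98.5 to 232 CPM and from 20.2 to 43.3 CPM. Ccl2 was thus called higher in the whole dKO library although it was called in neither of its main sources, and the share of FAP-like cells among sampled cells was 27.9% in Ctrl and 38.1% in dKO.

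**Figure D3:**
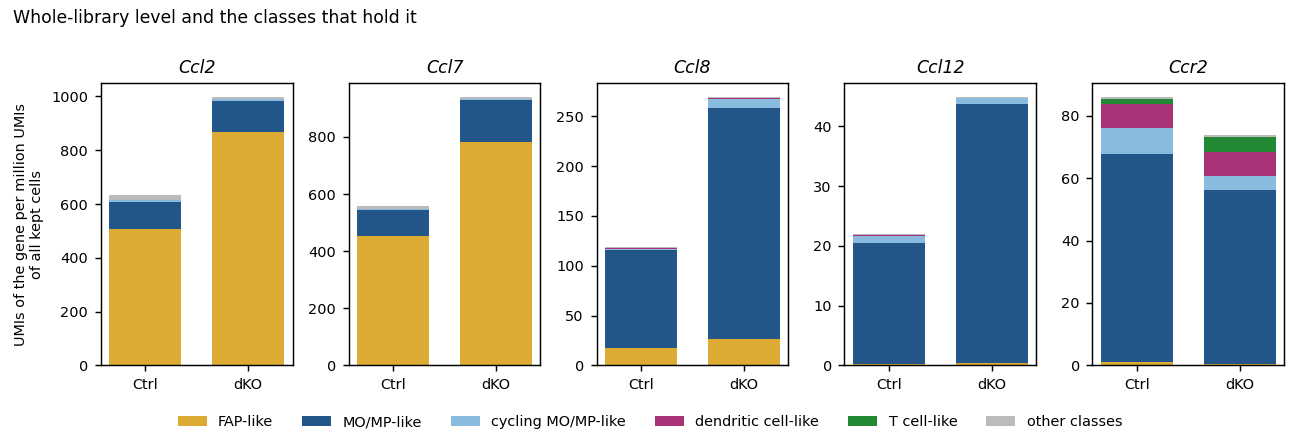
Whole-library level of each gene in Ctrl and dKO, in CPM of all kept cells, with each bar divided by the cell class that held the UMIs and starting at 0. The FAP-like part of the Ccl2 bar is 506 CPM in Ctrl and 869 CPM in dKO, and the MO/MP-like part of the Ccl8 bar is 98.5 and 232 CPM.

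MO/MP-like cells, cycling cells included, were divided into 7 sub-clusters to see whether the higher ligand levels were shared. Ccl8 was called higher in dKO in each of the 6 sub-clusters with enough UMIs, by 1.62-fold to 11.0-fold. In 2 of the 6, the Ly6c2+ Chil3+ and the cycling cells, 2 or fewer cells in each library held 50% of the Ccl8 UMIs. No direction is drawn for Ccl8 in the Ly6c2+ Chil3+ cells and no size in the cycling cells. Outside these 2 sub-clusters the ratios ran from 1.62-fold to 5.75-fold. Ccl12 was called higher in 3 of 5, Ccl7 in 3 of 7 and lower in 1, and Ccl2 in 1 of 7. Over all genes and the same sub-clusters, 6.72% of pairs with enough UMIs were called higher and 4.02% lower. Ccr2 was called lower in 2 of 7 and higher in none.

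The sub-cluster with Cd163 and Fcna, markers of resident macrophages, held most of the Ccl8 RNA. Ccl8 was at 3173 CPM there in Ctrl and 5152 CPM in dKO, a ratio of 1.62, and these cells held 69.9% and 66.3% of the Ccl8 UMIs of the class while being 11.9% and 14.6% of its cells. Ccl7 was at 781 and 1686 CPM in the same cells, 2.16-fold higher. Ccl2 (570 and 810 CPM, ratio 1.42) and Ccl12 (266 and 386 CPM, 1.45) were not called. Ccr2 was lower, at 329 CPM in Ctrl and 134 CPM in dKO, a ratio of 0.408.

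The Ly6c2+ Chil3+ sub-cluster, with genes of classical monocytes, had the highest Ccl2 levels of the 7 in both libraries, at 898 and 955 CPM, a ratio of 1.06. By the mean of each cell's own CPM, the Cd163+ Fcna+ cells were highest in dKO. Ccl7 was at 667 and 978 CPM in these cells (1.47) and Ccl12 at 144 and 199 CPM (1.38), both short of the call. Ccl8 was low, at 25.6 and 47.0 CPM, and called higher at 1.84-fold, from 51 and 71 UMIs of which 2 cells in each library held 50%. Its thinned share of 2.29% and 4.0% of cells lay within the intervals of the Ccl8 share in B cell-like cells. These were 0.026% to 5.61% in Ctrl and 0% to 5.06% in dKO, so no direction is drawn for Ccl8 there. Ccr2 was at 295 and 369 CPM, a ratio of 1.25. The monocyte-like cells thus held RNA of the receptor and of Ccl2 and Ccl7 in both libraries.

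In the sub-cluster led by interferon-induced genes Ccl12 was 3.37-fold higher (66.7 and 225 CPM), Ccl8 2.85-fold (257 and 731 CPM) and Ccl2 1.58-fold (99.6 and 157 CPM), and Ccr2 was lower at a ratio of 0.594 (317 and 188 CPM). Cells with Spp1 and Gpnmb, genes of phagocytic macrophages in damaged tissue, had Ccl8 at 47.3 and 182 CPM (3.85-fold), Ccl12 at 16.7 and 57.2 CPM (3.43-fold) and Ccl7 at 263 and 463 CPM (1.76-fold). In cells led by Fbxo32 and Arl5c, Ccl7 was 4.10-fold higher (61.5 and 252 CPM) and Ccl8 5.75-fold (54.2 and 311 CPM). Ccl12 was 7.93-fold higher there, from 25 UMIs in Ctrl, of which 1 cell held 60.0%, and 136 in dKO, of which 2 cells held 50%. The thinned share of cells with Ccl12 was 1.56% in Ctrl and 6.83% in dKO. The Ctrl share was under the 3.73% that a count of 0 in B cell-like cells allows, so no size is drawn for this ratio. In the Ear2+ Retnla+ cells Ccl7 was called lower at 0.351 (82 and 26 UMIs), but a single Ctrl cell held 48.8% of the Ctrl UMIs, and the thinned share of cells with Ccl7 was 5.94% in Ctrl and 7.48% in dKO. No direction is drawn for it. Ccl8 had only 10 and 7 UMIs there.

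**Figure D4:**
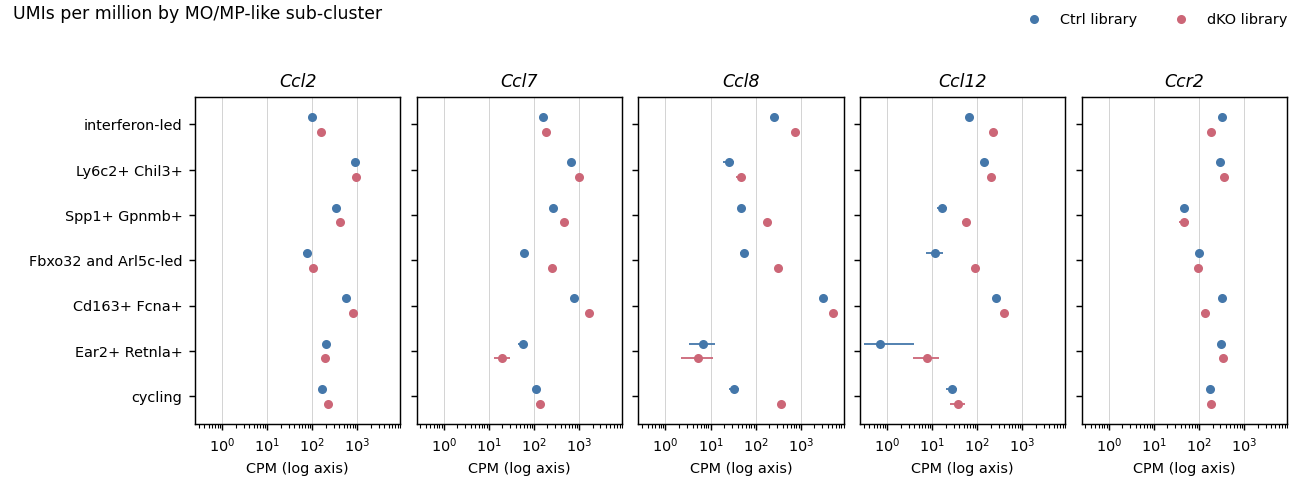
Levels of the 5 genes in the 7 sub-clusters of MO/MP-like cells, in CPM on a log axis, 1 point per library with 95% exact Poisson intervals. Ccl8 is highest in the Cd163+ Fcna+ cells (3173 and 5152 CPM) and Ccl2 in the Ly6c2+ Chil3+ cells (898 and 955 CPM).

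Sub-clusters also differed in size between the libraries, and the weighting that follows was chosen after the data had been seen. With the sub-clusters weighted as in Ctrl, the ratio over MO/MP-like and cycling cells together moved from 2.86 to 2.22 for Ccl8, from 2.45 to 2.22 for Ccl12 and from 1.91 to 1.68 for Ccl7, so all 3 remained past 1.5-fold. It moved from 1.31 to 1.21 for Ccl2 and from 0.954 to 0.874 for Ccr2.

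FAP-like cells were divided into 7 sub-clusters in the same way. Ccl2 and Ccl7 were each called higher in 2 of 7 and lower in none, and Ccl8 in 0 of the 6 with enough UMIs. Over all genes and these sub-clusters, 4.30% of pairs with enough UMIs were called higher and 3.91% lower. The Cxcl5+ cells had the highest Ccl2 levels, at 3450 and 3639 CPM, a ratio of 1.05, and Ccl7 at 2426 and 1951 CPM, a ratio of 0.804. They were 7.59% of FAP-like cells in Ctrl and 11.2% in dKO, and held 27.9% and 35.5% of the Ccl2 UMIs of the class. The FAP-like cells richest in Ccl2 thus did not differ in level by the call. Cells led by Tagln and Plk2 had Ccl2 at 1825 and 2011 CPM and held 33.3% and 24.5% of its UMIs. Their Ccl7 was at 1896 and 2184 CPM. They held 38.5% and 29.5% of the Ccl7 UMIs, as against 21.8% and 21.1% in the Cxcl5+ cells. Cycling FAP-like cells had Ccl2 at 2104 and 2714 CPM and held 13.3% and 12.4% of its UMIs. Neither sub-cluster was called.

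Both sub-clusters called higher had less Ccl2 and Ccl7 than the Cxcl5+ cells in each library. In cells led by G0s2 and Cdkn1c, Ccl2 was at 113 and 231 CPM (2.03-fold) and Ccl7 at 150 and 332 CPM (2.21-fold). In the Pi16+ Dpp4+ cells, which carry markers of the universal fibroblast progenitor, Ccl2 was at 539 and 1002 CPM (1.86-fold) and Ccl7 at 604 and 1075 CPM (1.78-fold). In the cells led by G0s2 and Cdkn1c, 5 of 348 Ctrl cells and 8 of 280 dKO cells held 50% of the Ccl2 UMIs. In the Pi16+ Dpp4+ cells these were 5 of 128 and 6 of 148, and 1 dKO cell held 23.7%. The thinned shares of cells with Ccl2 were 8.14% and 13.3% in the former and 23.7% and 31.9% in the latter. For Ccl7 they were 10.5% and 21.2%, and 33.9% and 45.1%. With the sub-clusters weighted as in Ctrl, the ratios over all FAP-like cells were 1.14 for Ccl2 and 1.20 for Ccl7.

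**Figure D5:**
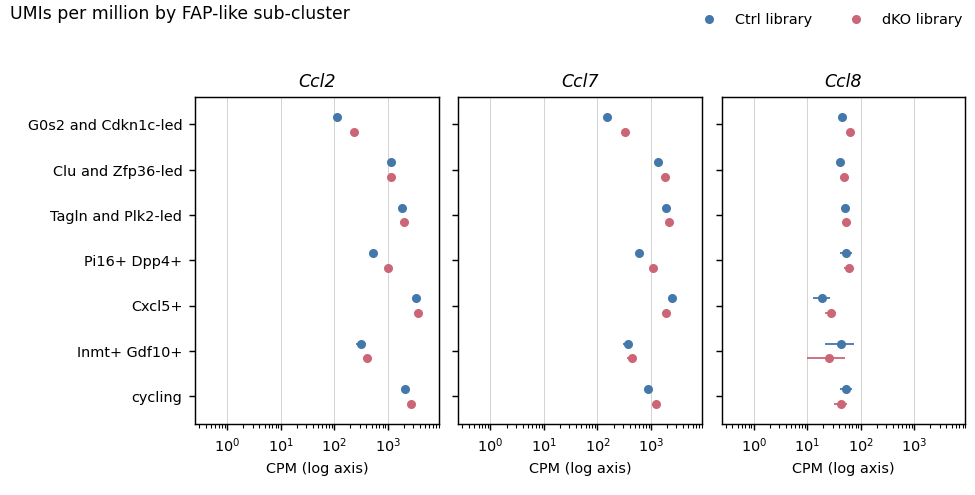
Levels of Ccl2, Ccl7 and Ccl8 in the 7 sub-clusters of FAP-like cells, in CPM on a log axis, 1 point per library with 95% exact Poisson intervals. Ccl2 reaches 3450 and 3639 CPM in the Cxcl5+ cells and is lowest in the cells led by G0s2 and Cdkn1c (113 and 231 CPM).

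Ligand RNA was concentrated in few cells. In MO/MP-like cells 50% of the Ccl8 UMIs came from 22 cells out of 1422 in Ctrl and 31 out of 1123 in dKO, and those of Ccl12 from 20 and 30 cells. In FAP-like cells 50% of the Ccl2 UMIs came from 49 of 1120 and 62 of 1174 cells. Ccr2 was spread more evenly, with 50% of its UMIs in MO/MP-like cells from 114 and 77 cells.

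The share of MO/MP-like cells with a UMI was higher in dKO than in Ctrl for each ligand and lower for Ccr2. The share with Ccl8 was 22.2% in Ctrl and 31.4% in dKO, and 14.2% and 24.5% once each cell had been thinned to 2000 UMIs. The share with Ccl7 was 34.7% and 41.9% (thinned 19.5% and 29.7%), that with Ccl12 14.1% and 24.1% (thinned 7.71% and 14.2%) and that with Ccl2 39.9% and 46.1% (thinned 24.9% and 28.9%). For Ccr2 it was 46.2% and 41.1% (thinned 27.7% and 22.1%). B cell-like cells, which are not a source of these chemokines, show the level that stray RNA gives. Their thinned shares were 1.03% and 0% for Ccl8, 2.06% and 4.23% for Ccl7, 1.03% and 0% for Ccl2 and for Ccr2, and 0% in both libraries for Ccl12. A count of 0 allows up to 3.73% of the 97 thinned Ctrl cells and 5.06% of the 71 thinned dKO cells. Thinning kept 1271 and 1011 MO/MP-like cells. The median depth of all cells was 7728 and 6841 UMIs in MO/MP-like cells and 2317.5 and 2556 UMIs in B cell-like cells. All thinned MO/MP-like shares lay above those of the B cell-like cells and above what their counts of 0 allow. In FAP-like cells the share with Ccl7 was 50.7% and 62.9% (thinned 34.6% and 48.6%, of 1057 and 1120 cells) and that with Ccl2 43.6% and 50.8% (thinned 31.8% and 38.3%). In T cell-like cells the thinned share with Ccr2 was 18.7% of 91 cells and 28.6% of 112 cells.

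Ccl2 and Ccl7 were found in the same cells. Among thinned FAP-like cells with a Ccl2 UMI, 70.5% had Ccl7 in Ctrl and 78.8% in dKO, as against 17.9% and 29.8% of those without Ccl2. In MO/MP-like cells the shares were 50.9% and 56.2% with Ccl2 and 9.11% and 18.9% without. Ccl8 and Ccr2 were mostly apart. Ccr2 was found in 11.1% and 8.47% of MO/MP-like cells with Ccl8 and in 30.4% and 26.5% of those without. Within the Cd163+ Fcna+ cells Ccr2 was found in 8.14% of the Ctrl cells with Ccl8 (7 of 86) and 51.7% of those without, and in 4.50% (5 of 111) and 27.8% in dKO.

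The other genes of the chemokine system in MO/MP-like cells were counted by the same call. Of all genes in the class 4.47% were called higher and 2.65% lower. Of 14 other CC chemokines 7 had enough UMIs, and 3 were higher and 1 lower. Ccl3 (153 and 255 CPM, 1.67-fold), Ccl4 (499 and 1020 CPM, 2.05-fold) and Ccl5 (46.2 and 150 CPM, 3.25-fold) were higher, and Ccl22, a ligand of Ccr4, was lower (14.2 and 6.13 CPM, 0.430). Of 12 other chemokine receptors 4 had enough UMIs and 1 was called, Ccr7, which guides cells to lymph nodes (6.74 and 12.5 CPM, 1.85-fold). None of 14 genes of receptor signalling was called. Among the inducers and decay factors of chemokine RNA, Irf7, an interferon-induced regulator, was higher (94.2 and 362 CPM, 3.84-fold), as were Irf1 (1.71), another interferon regulatory factor, and Nfkbiz (1.66), Rela (1.55) and Nfkbia (1.53), which belong to the NF-kB pathway. Of 12 classical monocyte genes, Ly6c2 (111 and 339 CPM, 3.06-fold) and Plac8 (2.15-fold) were higher and Cx3cr1, which is higher in patrolling monocytes, was lower (159 and 104 CPM, 0.654).

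In FAP-like cells, where 2.70% of all genes were called higher and 3.16% lower, 7 of the other CC chemokines had enough UMIs, of which Ccl19 was higher (40.1 and 66.0 CPM, 1.64-fold) and Ccl5 lower (8.10 and 4.82 CPM, 0.595). Among the inducers and decay factors, Irf7 (29.4 and 109 CPM, 3.69-fold) and Zc3h12a, an RNase that degrades inflammatory transcripts (25.0 and 39.2 CPM, 1.57-fold), were higher. Arrb2, an adaptor that internalises receptors, was the 1 of 11 signalling genes called, and was lower (7.22 and 3.79 CPM, 0.525). None of 3 other receptors was called. Of 6 classical monocyte genes with enough UMIs Plac8 (235 and 554 CPM) and Cx3cr1 (5.19 and 24.2 CPM) were higher and S100a4 was lower (599 and 393 CPM). Plac8 and Cx3cr1 are also genes of MO/MP-like cells, whose markers summed to 501 and 872 CPM in these FAP-like cells, and their part in these values was not tested.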

How the data were processed

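The deposited files held UMI counts per gene and cell, written by the authors with Cell Ranger and not normalized. The file headers name version 3.0.2, and the submitters' processing notes name Cell Ranger 7.0.0, Seurat 4.3.0 and the build mm10. The files held 4527 Ctrl and 3483 dKO barcodes with 45556596 and 33815155 UMIs, and 0 mitochondrial genes. From these counts, cells with at least 500 genes were kept (4335 and 3329). Scrublet in scanpy 1.11.5 called only 7 and 14 doublets by its own threshold, so in each library the 7.5% of cells that scored highest were left out (325 and 250). Libraries were integrated in Seurat 5.3.0 (R 4.3.3) on 2000 variable genes and 40 dimensions. They were clustered at a resolution of 0.8 into 24 clusters, with 31 CC chemokine and receptor genes left out. MO/MP-like and FAP-like cells were sub-clustered at 0.4 on 30 dimensions. Clusters were named from marker lists with at least 3 enriched markers. Classes with fewer than 30 cells in either library (Schwann, lymphatic, myocyte and perineurial) were not compared, and a cluster of 24 FAP-like cells was left out of the sub-clusters.

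UMIs were summed per class and library with Python 3.11.15, numpy 2.4.6, pandas 2.3.3 and scipy 1.17.1 and divided by the total, in CPM. Intervals were exact Poisson for levels, exact conditional binomial for ratios and exact binomial (Clopper-Pearson) for shares. With 1 library per group no p-value was computed. The steps were tested on simulated data, and figures were drawn with matplotlib 3.10.9. The genes named are the 5 members, the genes of the pathway lists past 1.5-fold in MO/MP-like or FAP-like cells (not all are reported here), the 3 genes most correlated with each member, and Yy1. The members and lists were chosen with earlier results of these data known. Alternatives were the doublet step, the cell filter (200 genes and 1000 UMIs), no integration, clustering with the chemokine genes, other resolutions, the mean of each cell's own CPM, scaling to the median ratio of genes, leaving out the cell with most UMIs, thinning to 2000 UMIs, and for the counts of called genes another fold and minimum of UMIs.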

Additional observations from a re-analysis of the deposited data

Results flagged for a closer look

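A pair of ligands was called in opposite directions in different cell classes by summed UMIs, and each case rests on few cells. Ccl2 had a ratio of 2.28 in MuSC-like cells and 0.340 in tenocyte-like cells, and the difference was not tested. A single cell held 51.5% of the Ccl2 UMIs of the dKO MuSC-like cells, and the mean of each cell's own CPM gave a log2 ratio of -0.43 there, so the opposite directions do not hold under that summary. In tenocyte-like cells 3 cells in each library held 50% of the Ccl2 UMIs. Ccl7 was 1.89-fold higher in MO/MP-like cells and had a ratio of 0.560 in tenocyte-like cells, and this difference was not tested either. In tenocyte-like cells 1 cell held 28.9% of the Ccl7 UMIs in Ctrl and 41.5% in dKO, and thinning to 2000 UMIs moved the log2 ratio to -0.07, which ends the call.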

How the results depend on the processing

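Each of the 5 ratios in MO/MP-like cells and the 3 in FAP-like cells kept its direction and its side of 1.5-fold under 9 alternatives. Values below are log2 ratios, with the reported value first. In MO/MP-like cells the mean of each cell's own CPM moved Ccl7 from 0.91 to 0.61, Ccl8 from 1.41 to 0.90, Ccl12 from 1.28 to 0.91 and Ccr2 from -0.09 to -0.24, and thinning to 2000 UMIs gave 0.70, 1.06, 0.98 and -0.42 for these genes and moved Ccl2 from 0.35 to 0.16. Without integration Ccl7 was at 1.00. In FAP-like cells Ccl2 moved from 0.31 to 0.36 (mean of cells) and 0.37 (scaling to the median ratio of genes), Ccl7 from 0.32 to 0.41 (mean of cells), 0.38 (scaling) and 0.41 (thinning), and Ccl8 from 0.17 to 0.33 with no doublets removed. In MuSC-like cells Ccl2 turned from 1.19 to -0.43 with the mean of cells. At a sub-clustering resolution of 0.8, 5 of the 10 highest MO/MP-like sub-clusters (5 genes in 2 libraries) stayed the same. In Ctrl the highest Ccl2 and Ccl7 levels moved to cells led by Osm and Grasp, and that of Ccr2 to cells led by Lars2 and Cited2. Ccl12 moved to the interferon-led cells in both libraries. In MO/MP-like cells 389 genes were called higher and 230 lower. These counts were 113 and 56 at 2-fold, 722 and 733 with at least 20 UMIs, and 2210 and 2690 with at least 1. In FAP-like cells 281 and 329 became 73 and 53, 553 and 828, and 1925 and 2544. No paired analysis was possible because each group has 1 library. The number of cells limits all 5 genes in MuSC-like cells of dKO, of which there were 30.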
